A study of Homo sapiens with 4 samples.

Results

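The baseline transcriptomes of SW1990 and PANC-1 cells, each without radiation, were compared. Both are established human cell lines of pancreatic ductal adenocarcinoma, SW1990 from a spleen metastasis and PANC-1 from a primary tumour. The study sequenced RNA of each line untreated (SW1990 Ctrl, PANC-1 Ctrl) and after 10 Gy of radiation (SW1990 Rad, PANC-1 Rad), with 1 library per line and treatment and 4 in all. Cells were at passage 14 to 16. SW1990 grew in RPMI-1640 and PANC-1 in DMEM, both with fetal bovine serum, so the line and its medium cannot be told apart. Of 58174 genes with an Ensembl identifier, 16626 had an FPKM of at least 1 in SW1990 Ctrl or PANC-1 Ctrl, and these were compared. FPKM is the deposited expression level, in fragments per kilobase of transcript, scaled to the mapped fragments of the library. Read counts on genes summed to 17851815 in SW1990 Ctrl, 23323266 in PANC-1 Ctrl, 18305682 in SW1990 Rad and 20026595 in PANC-1 Rad. Mitochondrial transcripts took 4.42% of them in SW1990 Ctrl and 3.3% in PANC-1 Ctrl, and the 10 most abundant genes 7.99% and 9.39%. Whether these shares play a part in the differences was not tested.

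Carcinoma cells can hold an epithelial state, in which E-cadherin, claudins and desmosomal proteins join them into a sheet, or shift to a mesenchymal state with vimentin and N-cadherin. Factors of the ZEB, SNAI and TWIST families repress epithelial genes, and microRNAs of the miR-200 family in turn repress ZEB factors. Cells of the pancreatic duct are marked by transcription factors such as SOX9 and PDX1, by keratins of simple epithelia, by mucins and by the CFTR chloride channel.

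With 1 library per line there was no replicate of a line under the same treatment, so the unirradiated comparison carries no p-value. A difference is the log2 ratio of the counts, SW1990 over PANC-1, after TMM scaling of the library sizes, with counts under 3 set to 3. Its exact Clopper-Pearson 95% interval covers counting error only. A gene was called when this interval lay wholly beyond 2-fold. Where 1 library held no read, the fold is a lower bound against 3 counts in that library, which correspond to 0.168 CPM (counts scaled to library size) in SW1990 Ctrl and 0.129 CPM in PANC-1 Ctrl. The irradiated pair, which shares no library with the unirradiated pair, was read in the same way as a second look. All 4 libraries were also fitted with edgeR's quasi-likelihood test, with treatment as a term and an adjusted p under 0.05. That fit has 1 residual degree of freedom and a common biological coefficient of variation of 0.218, moderated with 3.65 prior degrees of freedom. Its error term is how far the response to treatment differed between the 2 lines, not a spread between replicates of a line.

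SW1990 and PANC-1 differed in a large share of their transcriptome. In the unirradiated pair, 4814 of 16626 genes (29%) were called, 2347 higher in SW1990 (14.1%) and 2467 higher in PANC-1 (14.8%). The median log2 difference over all genes tested was 0.02, and the middle of the distribution ran from -0.76 to 0.77 between its quartiles. PANC-1 Ctrl held no read for 528 of the genes called higher in SW1990, and SW1990 Ctrl held none for 501 of those called higher in PANC-1. The counting interval lay beyond 32-fold for 276 genes in favour of SW1990 and for 304 in favour of PANC-1. Long noncoding genes were called as often as protein-coding genes, at 31.6% of 1719 against 31.4% of 12306. Where the deposited FPKM values replaced scaled counts, 58.8% of the genes beyond 2-fold were higher in SW1990, against 50.2% of the genes beyond 2-fold on counts by the point estimate and 48.8% of the genes called.

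The irradiated pair gave a similar picture from separate libraries. Of 16819 genes with an FPKM of at least 1 there, 4702 were called (28%), 2323 higher in SW1990 (13.8%) and 2379 higher in PANC-1 (14.1%). Of the 2347 genes called higher in unirradiated SW1990, 1786 were called the same way after radiation (76.1%) and 9 the other way. Of the 2467 called higher in unirradiated PANC-1, 1892 were called the same way (76.69%) and 11 the other way. In the fit of 4 libraries, 7921 of 18180 genes had an adjusted p under 0.05 (43.6%), 3890 higher in SW1990 (21.4%) and 4031 higher in PANC-1 (22.2%). DESeq2's Wald test on the same libraries gave 6124 of 17475.

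None of 25 housekeeping genes was called in the unirradiated pair, with a median log2 difference of -0.39. Smaller differences were found in the fit of 4 libraries, where 3 of them were higher in SW1990 and 11 higher in PANC-1. ACTB, the cytoskeletal beta-actin, differed by -0.32 (95% interval -0.33 to -0.31), GAPDH of glycolysis by 0.60 (0.58 to 0.61) and the elongation factor EEF1A1 by -0.86 (-0.87 to -0.85). Of 29 mitotic and replication genes, 1 was called in each direction, and the 4-library fit gave 4 in each. The replicative helicase subunit MCM4 was higher in SW1990 (8829 counts against 3458, log2 difference 1.54) and the spindle protein TPX2 higher in PANC-1 (5177 against 23015, -1.96).

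The labels were checked against cell type markers. Both lines carried keratins of simple epithelia, which duct cells express. KRT8 stood at 1352 FPKM in SW1990 Ctrl, 1888 in SW1990 Rad, 786 in PANC-1 Ctrl and 851 in PANC-1 Rad. KRT19, the usual duct keratin, stood at 224 and 306 FPKM in SW1990 and at 146 and 241 FPKM in PANC-1. Neither was called, nor was their partner KRT18 (log2 difference 0.75). Of 12 ductal markers, 11 were tested, and 29% were called over all genes. Of these markers, 5 were called higher in SW1990, among them CDH1, CFTR, EPCAM and CLDN4, and 1 higher in PANC-1 (MUC1). However, 4 passed the filter through SW1990 only, which fixes their direction. Among the 7 at 1 FPKM or more in both lines, 1 was called in each direction. In PANC-1 Ctrl 3 of the 12 held no read, among them CFTR and SLC4A4. In bulk RNA, fewer cells with a transcript and less of it per cell cannot be told apart.

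Markers of other cell types were scarce. The 12 acinar markers summed to 1.18 FPKM in SW1990 Ctrl and 0 in PANC-1 Ctrl, and 8 of them, among them CPA1, PNLIP and AMY2A, had no read in any library. The 12 islet markers summed to 0.146 and 1.56 FPKM, with INS, GCG, SST and PPY at 0 in all 4 libraries. Fibroblast and stellate markers summed to 14.7 and 12.5 FPKM, led by RGS5 in SW1990 Ctrl (7.33 FPKM) and COL1A1 in PANC-1 Ctrl (8.44 FPKM), with COL1A2, DCN, PDGFRA, FAP, PDPN and POSTN at 0 throughout. Endothelial markers summed to 1.86 and 10.4 FPKM, led in PANC-1 Ctrl by the VEGF receptor KDR (6.37 FPKM), with TEK, CLDN5 and PLVAP at 0 throughout. Blood markers summed to 2.06 and 19.5 FPKM, of which the lysosomal protein CD68 made 18.8 FPKM in PANC-1 Ctrl, and CD3E, CD3D and MS4A1 had no read in any library. Other expressed genes overlap 81.7% of the exon length of CD68. The part of these markers in the differences between the lines was not tested.

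Genes of the epithelial program were higher in SW1990. All 42 genes of the list of epithelial adhesion and splicing passed the filter, 23 at 1 FPKM or more in both lines and 19 in SW1990 only. In all, 32 were called higher in SW1990 and 2 higher in PANC-1, beside 14.1% and 14.8% over all genes, the shares that also stand behind the counts of every other list, with a median log2 difference of 4.42 against 0.02 over all genes. A gene near 0 in PANC-1 enters only through SW1990, so the 23 present in both lines are given apart. Of these, 13 were called higher in SW1990 and 2 higher in PANC-1.

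CDH1, which encodes E-cadherin, stood at 140.1 FPKM in SW1990 Ctrl and 239 in SW1990 Rad, against 0.673 in PANC-1 Ctrl and 1.21 in PANC-1 Rad. The lines did not overlap, and the unirradiated counts of 9906 and 59 gave a log2 difference of 7.58 (7.21 to 7.97). The edgeR adjusted p of CDH1 in the fit of 4 libraries was 0.00076. EPCAM, an epithelial adhesion molecule, stood at 217 and 218 FPKM in SW1990 and at 2.29 and 2.81 FPKM in PANC-1, a log2 difference of 6.28 (6.003 to 6.57). The membrane protease matriptase, ST14, had 8752 and 9559 counts in SW1990 and 15 and 7 in PANC-1, a log2 difference of 9.38 (8.66 to 10.21). Each of these was present in PANC-1 at a low level.

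Other members had no read at all in PANC-1 Ctrl. MAL2, a carrier of apical membrane traffic, was at least 1489-fold higher in SW1990, the epithelial ETS factor EHF at least 818-fold and GRHL2, a factor that maintains epithelial gene expression, at least 685-fold. CRB3, a polarity protein of the apical membrane, had 424 counts in SW1990 Ctrl and 497 in SW1990 Rad and none in either PANC-1 library, at least 161-fold higher. MARVELD3 of the tight junction was at least 282-fold higher. The splicing factor ESRP1, which directs epithelial exon choice, had 544 and 545 counts in SW1990 and 9 and 3 in PANC-1, while its relative ESRP2 differed less, with 2234 and 1994 counts against 587 and 544. The junction proteins JUP, TJP1 and OCLN were not called (log2 differences 0.58, 0.79 and -0.20), although TJP1 was called higher in SW1990 after radiation (1.18). The difference thus did not extend to every component of the junctions. Claudins went both ways. CLDN2, a pore-forming claudin, had 4694 counts against 0 and was at least 1784-fold higher in SW1990, whereas CLDN1, a sealing claudin, had 333 against 2724 and was higher in PANC-1 by -2.84 (-3.01 to -2.68). After radiation CLDN1 had 634 counts in SW1990 and 1010 in PANC-1 and was not called.

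Mesenchymal genes were mostly higher in PANC-1. Of 40 genes on that list 28 passed the filter, and 21 were called higher in PANC-1 and 3 higher in SW1990, with a median of -3.97. Among the 14 at 1 FPKM or more in both lines, 9 were called higher in PANC-1 and 2 higher in SW1990. VIM, which encodes the intermediate filament vimentin, stood at 1627 FPKM in PANC-1 Ctrl and 1650 in PANC-1 Rad, against 0.626 in SW1990 Ctrl and 0 in SW1990 Rad. Its 82406 and 17 unirradiated counts made it the most different gene in favour of PANC-1 by its counting bound, at -12.05 (-12.83 to -11.38). The edgeR adjusted p of VIM in the fit of 4 libraries was 0.00118. The receptor kinase AXL stood at 119.5 and 119.7 FPKM in PANC-1 and 0.593 and 0.67 FPKM in SW1990, a log2 difference of -8.38 (-8.88 to -7.92). The matrix metalloproteinase MMP2 had 1428 and 1435 counts in PANC-1 and 0 and 3 in SW1990, and the methionine sulfoxide reductase MSRB3 had 2189 and 1692 against 0 and 0, at least 640-fold lower in unirradiated SW1990.

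Repressors of the epithelial state with reads in PANC-1 were higher there too. ZEB1 stood at 17.4 FPKM in both PANC-1 libraries, at 0.314 in SW1990 Ctrl and at 1.33 in SW1990 Rad. Its unirradiated difference was -6.45 (-7.32 to -5.70), and its edgeR adjusted p in the fit of 4 libraries was 0.00522. ZEB2 had 463 and 362 counts in PANC-1 and 2 and 0 in SW1990, a difference of -7.08 (-9.36 to -5.53). SNAI1 had 220 and 243 counts in PANC-1 and 55 and 69 in SW1990 (-1.81; -2.27 to -1.38), and TWIST2 had 111 and 87 against none. SNAI2 stayed under the filter, with 48 and 29 counts in PANC-1 and none in SW1990, and TWIST1 had no read in any library. CDH2, which encodes N-cadherin, had 333 and 301 counts in PANC-1 and 0 and 4 in SW1990, at least 97.4-fold lower in unirradiated SW1990 but at only 2.79 FPKM in PANC-1 Ctrl. Fibronectin, another usual mesenchymal marker, was nearly absent, since FN1 had 8 counts in PANC-1 Ctrl and 0 in SW1990 Ctrl. Members of the list higher in SW1990 encode smooth muscle actin (ACTA2, 110 counts against 0), the actin-binding protein transgelin (TAGLN, 647 against 99) and the procollagen protease BMP1 (633 against 176).

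**Figure D1:**
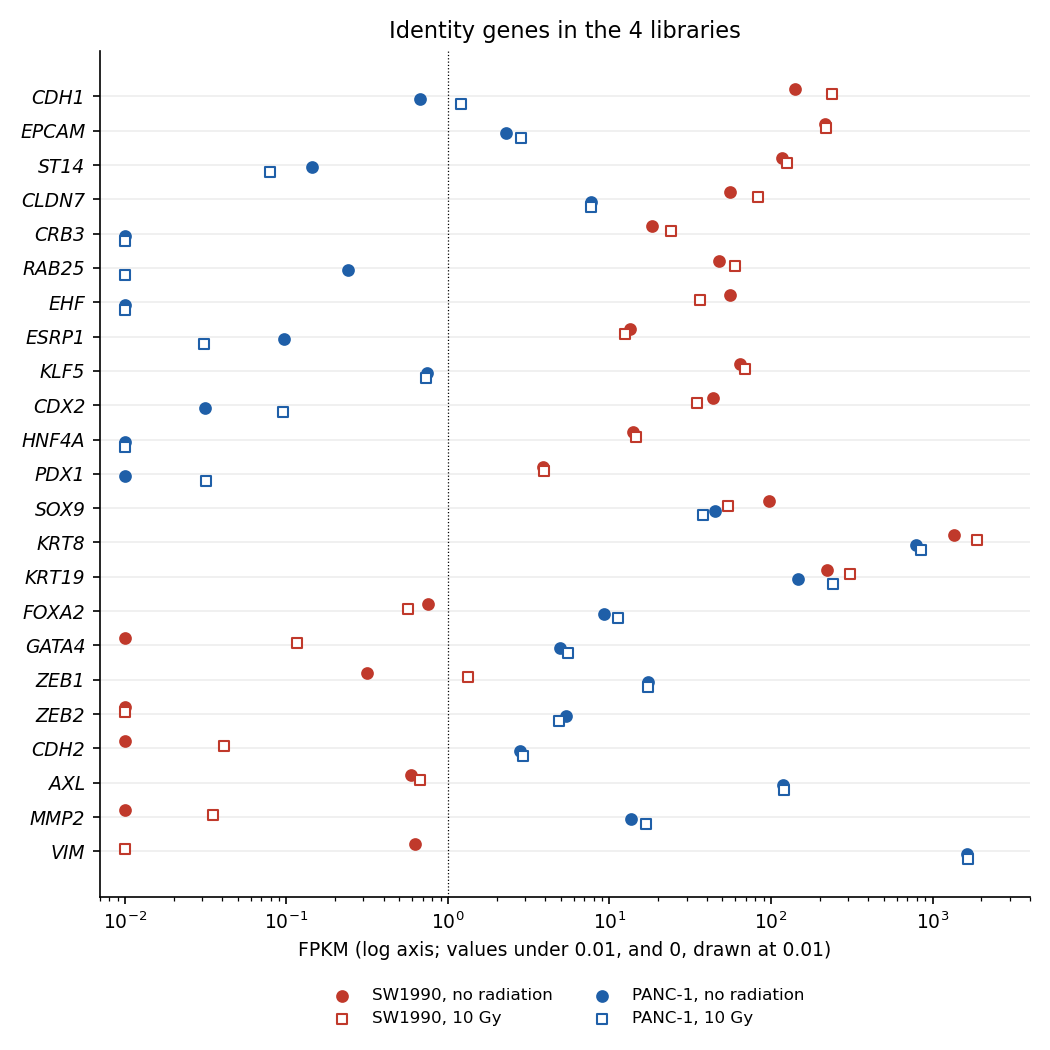
FPKM on a log axis of 23 epithelial, lineage and mesenchymal genes in the 4 libraries, with filled circles for unirradiated and open squares for irradiated cells, red for SW1990 and blue for PANC-1. CDH1, EPCAM and CDX2 lie to the right in SW1990, VIM and AXL in PANC-1, and KRT8, KRT19 and SOX9 lie close together in all 4 libraries.

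The hexamer CAGGTG is an E-box that ZEB and SNAI proteins can bind. Promoters of the called epithelial genes were searched for it on both strands, where it reads CACCTG on the other strand. The window was the 250 bases before the transcription start in RefSeq (GRCh38.p14). Of 35116 promoters 6143 (17.5%) held at least 1 such hexamer. Of the 32 epithelial genes called higher in SW1990, 16 had a promoter entry, which CDH1, EPCAM and ST14 lacked. These 16 had 21 promoters, and 11 of them held the hexamer (52.4%). For the 21 mesenchymal genes called higher in PANC-1, 12 had an entry, and 4 of 22 promoters held it (18.2%). Promoters of a gene can overlap, and a match is a description of letters, not a binding site. The genes were taken by their calls in these same data, and list genes that were not called were not searched beside them. Whether the hexamer plays a part in the differences was not tested. The promoters shown are those of CRB3 and CLDN7, which held the hexamer 5 and 4 times, and of MIR200CHG, the host transcript of miR-200c and miR-141. Of all promoters 0.464% held it 3 times or more, but CRB3 and CLDN7 were picked with their hexamers known, so this share is no test of them. Promoters of EHF, CLDN4 and MARVELD2 held it 0 times and that of RAB25 held it 1 time. The promoters shown are written 5′ to 3′ with the hexamer in capitals and were chosen after their values were seen.
CRB3, chr19:6464021-6464270, plus strand: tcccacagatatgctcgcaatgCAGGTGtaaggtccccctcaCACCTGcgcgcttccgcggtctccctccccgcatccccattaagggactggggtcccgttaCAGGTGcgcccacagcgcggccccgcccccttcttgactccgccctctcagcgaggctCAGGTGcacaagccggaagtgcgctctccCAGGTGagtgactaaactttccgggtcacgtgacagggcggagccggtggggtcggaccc
CLDN7, chr17:7262479-7262728, minus strand: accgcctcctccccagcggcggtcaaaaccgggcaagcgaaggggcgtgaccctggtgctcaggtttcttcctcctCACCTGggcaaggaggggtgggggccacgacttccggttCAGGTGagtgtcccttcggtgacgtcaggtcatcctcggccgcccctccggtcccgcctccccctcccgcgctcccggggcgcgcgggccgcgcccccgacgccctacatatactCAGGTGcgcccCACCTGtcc
MIR200CHG, chr12:6962995-6963244, plus strand: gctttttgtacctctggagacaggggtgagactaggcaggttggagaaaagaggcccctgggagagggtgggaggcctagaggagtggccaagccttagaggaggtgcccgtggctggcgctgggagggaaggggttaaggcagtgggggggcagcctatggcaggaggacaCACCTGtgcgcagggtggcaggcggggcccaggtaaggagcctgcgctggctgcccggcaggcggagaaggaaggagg
Counted from the start site, the hexamer begins at -228, -208, -147, -89 and -60 in CRB3, at -174, -135, -20 and -9 in CLDN7 and at -78 in MIR200CHG. CLDN7, another claudin of the list, had 1502 and 2316 counts in SW1990 and 215 and 217 in PANC-1, a log2 difference of 2.99 (2.79 to 3.21). It overlaps other expressed genes over 10.8% of its exon length. A further start site of CLDN7 in RefSeq held the hexamer 0 times.

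MicroRNAs themselves were not measured, but their long host transcripts were. Of 20 hosts 13 passed the filter, 6 were called higher in SW1990 and 6 higher in PANC-1, against 29% called over all genes. Of the 8 present in both lines at 1 FPKM or more, 3 were called higher in SW1990 and 4 higher in PANC-1. MIR200CHG had 27 and 28 counts in SW1990 and none in PANC-1, at least 10.3-fold higher in unirradiated SW1990. MIR100HG had 615 and 420 counts in PANC-1 and 2 and 1 in SW1990, a difference of -7.49 (-9.77 to -5.94). MIR31HG was also higher in PANC-1 (369 and 243 counts against 45 and 23, -2.85), and MIRLET7BHG was higher in SW1990 (2000 counts against 741, 1.62) but not called after radiation (1463 against 872). MIR194-2HG, the host of miR-194 and miR-192, stayed under the filter at 0.591 FPKM in SW1990 Ctrl and 0.0813 in PANC-1 Ctrl, with 48 counts against 9. The mature sequences in these hosts are given from RefSeq, 5′ to 3′, with the seed (bases 2 to 8) in capitals, since the seed sets which transcripts a microRNA pairs with.
hsa-miR-200c-3p (MIR200CHG): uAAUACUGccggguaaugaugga
hsa-miR-141-3p (MIR200CHG): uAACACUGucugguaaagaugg
hsa-miR-194-5p (MIR194-2HG): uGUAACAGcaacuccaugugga
hsa-miR-192-5p (MIR194-2HG): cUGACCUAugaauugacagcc
hsa-let-7a-5p (MIRLET7BHG and MIR100HG): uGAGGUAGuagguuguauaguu
hsa-let-7b-5p (MIRLET7BHG): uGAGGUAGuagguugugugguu
hsa-miR-100-5p (MIR100HG): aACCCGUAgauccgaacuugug
hsa-miR-125b-5p (MIR100HG): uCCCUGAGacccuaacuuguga
hsa-miR-31-5p (MIR31HG): aGGCAAGAugcuggcauagcu
Copies of let-7a lie in MIRLET7BHG, which was higher in SW1990, and in MIR100HG, which was higher in PANC-1, and let-7b shares their seed. The host transcripts therefore do not order the lines for this seed.

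Several transcription factors of the duct and the gut were found in only 1 of the lines. Of 38 on the list 22 passed the filter, 12 of them through SW1990 only and 3 through PANC-1 only, which fixes their direction, and 13 were called higher in SW1990 and 4 higher in PANC-1, with a median of 3.28, and 16 of these calls were repeated in the irradiated pair. Of the 7 at 1 FPKM or more in both lines, 2 were called higher in SW1990 and 1 higher in PANC-1. CDX2, a master regulator of intestinal epithelium, stood at 43.6 and 35 FPKM in SW1990 and 0.0313 and 0.0951 FPKM in PANC-1, with 3732 counts against 4 without radiation, a difference of 10.06 (8.70 to 11.93). HNF4A, a hepatic and intestinal factor, had 498 and 501 counts in SW1990 and none in PANC-1, at least 189-fold higher. PDX1, needed for pancreas development, had 214 and 221 counts against 0 and 2. FOXA1, a pioneer factor of foregut epithelia, had 1780 and 1485 counts in SW1990 and 12 and 22 in PANC-1, a difference of 7.40 (6.59 to 8.36).

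Endoderm factors were not missing from PANC-1. FOXA2 had 644 and 682 counts in PANC-1 and 40 and 31 in SW1990, a difference of -3.82 (-4.32 to -3.36), and GATA4 had 357 and 288 against 0 and 9. SOX9, the duct progenitor factor, was present in both lines at 97.4 and 54 FPKM in SW1990 and 45.3 and 37.8 FPKM in PANC-1, and was not called (0.90; 0.85 to 0.95), although scaling by total counts gave 1.09 and a call. Of the paralogues FOXA1 and FOXA2, each line therefore held mainly 1. Intestinal products accompanied CDX2 in SW1990. VIL1, the microvillus protein villin, had 3852 counts against 5, although other expressed genes overlap 44% of its exon length. CDH17, the intestinal cadherin, had 2856 against 10, and the intestinal keratin KRT20 had 742 against 2 and 1282 against 0 after radiation.

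HOX genes, which mark position along the body axis, differed by cluster. Of 29 tested, 12 passed the filter through SW1990 only and 7 through PANC-1 only, which fixes their direction, and of the 10 at 1 FPKM or more in both lines 5 were called higher in SW1990 and 2 higher in PANC-1. Over all genes 29% were called. In the HOXA cluster 9 of 11 genes were called higher in SW1990, and FPKM summed to 83.1 in SW1990 Ctrl and 78.5 in SW1990 Rad against 5.35 and 6.07 in PANC-1. HOXA13 had 1067 and 666 counts in SW1990 and HOXA9 had 706 and 619, with none in PANC-1, at least 406-fold and 268-fold higher in unirradiated SW1990. In the HOXC cluster all 7 genes tested of 9 were called higher in PANC-1. FPKM of that cluster summed to 90.1 and 111 in PANC-1 against 2.51 and 1.82 in SW1990. HOXC10 had 1207 and 1539 counts in PANC-1 and 4 and 4 in SW1990, a difference of -8.05 (-9.93 to -6.69), and HOXC13 had 463 and 691 against none. The HOXB cluster was expressed in both lines, at 380 and 237 FPKM in SW1990 and 152 and 133 FPKM in PANC-1 in sum, with 4 genes called higher in SW1990 and 1 higher in PANC-1. HOXB7, HOXB5 and HOXB4 were not called (0.13, 0.36 and -0.33). The HOXD cluster was low in both lines, at 4.26 FPKM in sum in SW1990 Ctrl and 0.0728 in PANC-1 Ctrl, and 2 of its 9 genes were tested.

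Several secretory and transport genes of ductal and gut epithelium were found in SW1990 alone. Of 26 mucins and tumour glycoprotein genes 13 passed the filter, with 11 called higher in SW1990 and 2 higher in PANC-1, but 10 of the 13 passed through SW1990 only, and the 2 at 1 FPKM or more in both lines split 1 and 1. The membrane mucin MUC13 had 1422 and 2278 counts in SW1990 and none in PANC-1, at least 540-fold higher, and GALNT3, which starts mucin-type glycosylation, had 997 against 0. The gastric gel mucin MUC6 had 504 counts against 0 and mesothelin, MSLN, 500 against 6. MUC1, the membrane mucin of most duct carcinomas, went the other way, with 56 and 85 counts in SW1990 and 313 and 462 in PANC-1 (-2.29; -2.73 to -1.88). Of 25 genes of ductal ion transport 14 were tested, 11 called higher in SW1990 and 1 higher in PANC-1. Here 8 passed through SW1990 only, and of the 5 present in both lines 3 were called, all higher in SW1990. CFTR had 304 and 288 counts in SW1990 and none in PANC-1, at least 116-fold higher. KCNE3 and KCNQ1, subunits of a basolateral potassium channel, had 1199 and 1061 counts against 0. The carbonic anhydrase CA2 had 138 against 0, and the pump subunit ATP1B1 was not called (-0.40).

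Genes of both tumour subtypes of pancreatic cancer, classical and basal-like, were found in SW1990. Of the classical subtype genes 8 of 24 were tested, 6 called higher in SW1990 and none higher in PANC-1, but 6 had passed through SW1990 only, and of the 2 present in both lines 1 was called. Of the basal-like genes 12 of 24 were tested, 7 called higher in SW1990 and 1 higher in PANC-1, and of the 7 present in both lines 3 were called, all higher in SW1990. TSPAN8, a classical tetraspanin, had 1148 counts in SW1990 Ctrl against 34, and TNS4, a basal-like focal adhesion protein, had 12136 against 276. DHRS9, a retinol dehydrogenase on the basal-like list, was higher in PANC-1 (297 counts against 0), and AGR2, a secretory chaperone of the classical list, was not called (886 against 2140; -1.08, -1.20 to -0.97).

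Of 48 genes of retinoid, aldehyde and xenobiotic metabolism 35 were tested, 22 called higher in SW1990 and 4 higher in PANC-1, beside 14.1% and 14.8% over all genes, with a median of 2.38. Among the 17 at 1 FPKM or more in both lines the calls were 7 and 3. ALDH3A1, an aldehyde dehydrogenase of stressed epithelia, stood at 79.9 and 74.4 FPKM in SW1990 and 0 in PANC-1, at least 1135-fold higher, and mitochondrial ALDH2 had 1500 counts against 0. ALDH1A1, a marker of stem-like pancreatic cancer cells that the study followed, had no read in either unirradiated library, 4 in SW1990 Rad and 0 in PANC-1 Rad. A count of 0 allows up to 0.168 CPM in SW1990 Ctrl. All 7 UGT1A genes tested, which encode glucuronosyltransferases, passed the filter through SW1990 only, which fixes their direction. They had no read in PANC-1 and between 61 counts (UGT1A10) and 1539 counts (UGT1A6) in SW1990 Ctrl, but they share exons, so counts of single members are uncertain. ABCB1, the drug efflux pump, stood at 117 and 99.4 FPKM in SW1990 with no read in PANC-1, at least 2039-fold higher. Another efflux pump, ABCG2, was higher in PANC-1, with 2985 counts against 132 (-4.31; -4.57 to -4.06).

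**Figure D2:**
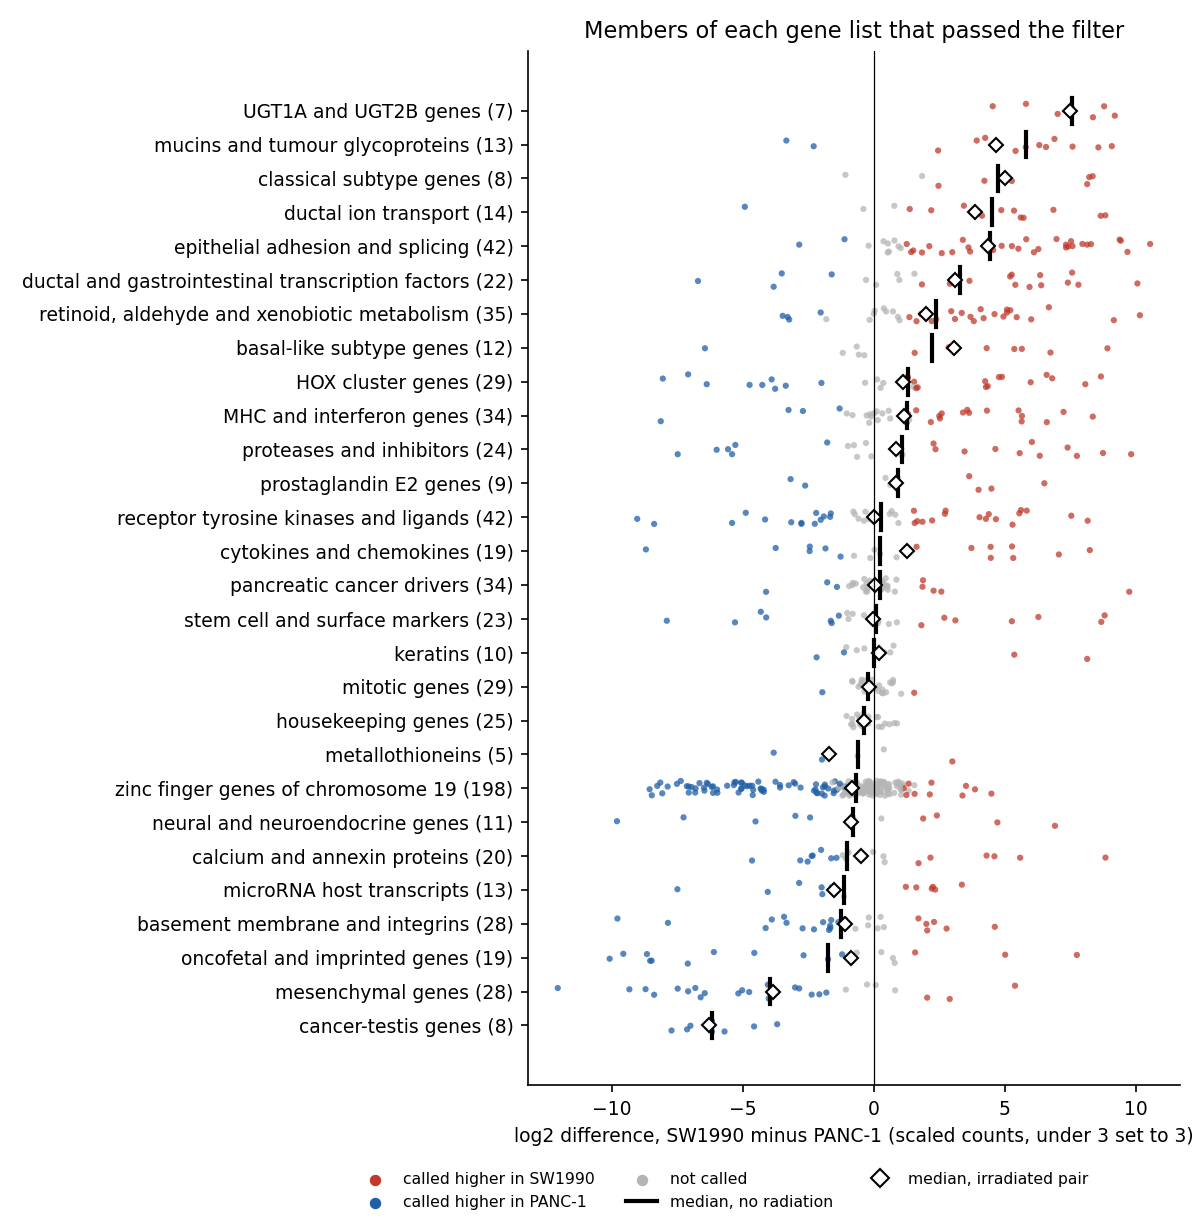
Log2 difference, SW1990 minus PANC-1, on scaled counts with values under 3 set to 3, of the members of 28 gene lists that passed the filter (number in brackets), in red where called higher in SW1990, blue where called higher in PANC-1 and grey otherwise. Bars are the medians without radiation and diamonds those of the irradiated pair, from 7.55 for UGT genes down to -6.17 for cancer-testis genes. All members of both these lists passed the filter only through the line where they are higher, which fixes their direction.

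Growth factor receptors and ligands divided between the lines. Of 53 receptor tyrosine kinases and ligands 42 were tested, 17 called higher in SW1990 and 14 higher in PANC-1, against 29% called over all genes. Here 11 passed through SW1990 only and 6 through PANC-1 only, and among the 25 present in both lines the calls were 6 and 8. Within the ERBB family, EGFR stood at 146 and 113 FPKM in PANC-1 and 17.1 and 21.4 FPKM in SW1990. Its difference on scaled counts was -4.15 (-4.22 to -4.07), larger than the FPKM values give. ERBB2 was higher in SW1990 (2996 counts against 943; 1.86, 1.75 to 1.96). The ligand NRG1, a neuregulin that binds ERBB3, had 1781 and 905 counts in PANC-1 and none in SW1990, at least 521-fold lower in unirradiated SW1990. ERBB3 itself was higher in SW1990 (1820 counts against 53; 5.29, 4.90 to 5.71). The ERBB3 ligand and its receptor were thus each higher in a different line. TGFA, a ligand of EGFR, had 975 counts in SW1990 Ctrl and 6 in PANC-1 Ctrl (7.53; 6.41 to 8.98). The receptors MET and EPHA2 were not called (-0.37 and -0.78).

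Of 34 basement membrane and integrin genes 28 were tested, 16 called higher in PANC-1 and 6 higher in SW1990, beside 14.8% and 14.1% over all genes, and among the 19 present at 1 FPKM or more in both lines the calls were 10 and 3. NID1, which encodes the linker protein nidogen, had 3005 counts against 0 and the laminin chain LAMA4 had 790 against 0, at least 879-fold and 231-fold lower in SW1990. The integrin chains ITGA3 and ITGA5 had 32071 and 3415 counts in PANC-1 Ctrl and 2623 and 202 in SW1990 Ctrl. The epithelial integrin ITGB6 went the other way (8 against 172 counts), and LAMA5, AGRN and HSPG2 were not called. Among proteases, kallikreins were found in SW1990, with KLK6 at 67.9 and 78.3 FPKM, KLK10 at 34.3 and 46.3 FPKM and KLK7 at 16.4 and 19.9 FPKM, and none of the 3 had a read in PANC-1. The largest differences in favour of PANC-1 outside these lists included the peptidase ANPEP (26933 counts against 4), the surface protein CD109 (16684 against 0), the secreted hormone STC2 (14431 against 0), the membrane linker moesin, MSN (12376 against 0), and the gap junction protein GJA1 (7675 against 0). In favour of SW1990 they included FRAS1, an extracellular matrix protein of epithelial basement membranes, with 5439 counts against 2 (11.01; 9.47 to 13.29), and the kinase SYK with 2016 against 0.

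Of 42 cytokines and chemokines 19 were tested, 8 called higher in SW1990 and 6 higher in PANC-1, with 29% called over all genes, and among the 9 present in both lines the calls were 1 and 3. CCL2, a chemokine for monocytes, stood at 65.4 and 66.6 FPKM in PANC-1 with no read in SW1990, at least 414-fold lower in unirradiated SW1990. CXCL5, a chemokine for neutrophils, had 795 and 382 counts in SW1990 and none in PANC-1, and lipocalin, LCN2, had 351 and 519 against none. The stress cytokine GDF15 was not called without radiation (6849 counts against 8563, -0.13) but was called higher in SW1990 after it (8740 against 3611, 1.33). Of 14 genes of prostaglandin E2 metabolism 9 were tested, 4 called higher in SW1990 and 2 higher in PANC-1, and among the 4 present in both lines 1 was called, higher in PANC-1. PTGS2, the inducible cyclooxygenase, had 153 and 255 counts in SW1990 and 14 and 2 in PANC-1 (3.64; 2.85 to 4.54), and the synthase PTGES had 574 against 41. The degrading enzyme HPGD was also higher in SW1990 (239 against 2), while the receptor PTGER4 was higher in PANC-1 (52 against 535; -3.17, -3.61 to -2.76).

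Several imprinted and fetal genes were found in PANC-1 alone. Of 30 on that list 19 were tested, 11 called higher in PANC-1 and 3 higher in SW1990 (H19, PLAGL1 and MEST), beside 14.8% and 14.1% over all genes. Of these 19, 8 had passed through PANC-1 only, and among the 8 present in both lines the calls were 3 and 2. The imprinted noncoding RNAs MEG3 and MEG8 had 3688 and 2569 counts in PANC-1 Ctrl and none in either SW1990 library, at least 1078-fold and 751-fold lower in SW1990. The fetal RNA-binding proteins IGF2BP1 (4589 counts against 10) and LIN28B (1215 against 0) were also found mainly in PANC-1. HMGA2, a chromatin protein of fetal cells, was expressed in both lines, at 72 and 55.3 FPKM in PANC-1 and 18.3 and 12.8 FPKM in SW1990 (-2.68; -2.77 to -2.58). H19, an imprinted noncoding RNA, stood at 525 and 678 FPKM in SW1990 and 2.37 and 2.79 FPKM in PANC-1. Its unirradiated difference was 7.75 (7.47 to 8.04), and its edgeR adjusted p in the fit of 4 libraries was 0.00076. IGF2, its neighbour, differed in the other direction without radiation (33 counts against 886) but was not called after it (209 against 400). All 8 cancer-testis genes that passed the filter, of 83, were higher in PANC-1, a direction the filter fixed, since none reached 1 FPKM in SW1990. All lie in the MAGEA and CSAG group of the X chromosome, whose members are near copies with uncertain single counts. MAGEA6 had 719 and 767 counts in PANC-1 and none in SW1990. Of 38 neural and neuroendocrine genes 11 were tested, 4 called higher in SW1990 and 5 higher in PANC-1, with 29% called over all genes, and of the 4 present in both lines 1 was called in each direction. The synaptic protein SYT1 (3041 counts against 0) and the adhesion molecule L1CAM (697 against 4) were higher in PANC-1, and the adhesion molecule CADM1 (1160 against 11) was higher in SW1990.

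Of 36 driver genes of pancreatic cancer 34 were tested and 8 called, 5 higher in SW1990 and 3 higher in PANC-1, against 29% called over all genes. Their median difference was 0.23. SMAD4, a mediator of TGF-beta signals, had 1249 counts against 1147 and was not called (0.31; 0.20 to 0.43). CDKN2A stayed under the filter, with 6 and 9 counts in SW1990 and none in PANC-1. RNF43, a ubiquitin ligase that removes WNT receptors, had 7515 and 6351 counts in SW1990 and 10 and 4 in PANC-1, a difference of 9.74 (8.86 to 10.80). Both catalytic subunits of the SWI/SNF remodeller, SMARCA4 and SMARCA2, were higher in SW1990 (2.58 and 2.28). The kinase AKT2 stood at 660 and 804 FPKM in PANC-1 and 45.5 and 42.8 FPKM in SW1990. Its unirradiated difference was -4.11 (-4.17 to -4.04), and its edgeR adjusted p in the fit of 4 libraries was 0.000804.

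Surface markers used for stem-like pancreatic cancer cells pointed to different lines. Of 32 stem cell and surface markers 23 were tested, 7 called higher in SW1990 and 7 higher in PANC-1, against 29% called over all genes. Among the 18 at 1 FPKM or more in both lines the calls were 3 and 6. PROM1, the CD133 antigen, had 1177 and 1615 counts in SW1990 and none in PANC-1, at least 447-fold higher. The WNT-linked receptor LGR5 had 1078 and 768 counts against 2 and 10. CD44, the hyaluronan receptor, stood at 324 and 332 FPKM in PANC-1 and 25.3 and 43 FPKM in SW1990, a difference of -4.10 (-4.20 to -4.01). CD24 was low in both, at 1.52 and 4.25 FPKM in SW1990 and 0.323 and 0.847 FPKM in PANC-1, and was called higher in SW1990 (1.81; 1.13 to 2.54). The chemokine receptor CXCR4 stayed under the filter with 6 counts in PANC-1 Ctrl and 0 in SW1990 Ctrl. Of the vesicle genes the study names, the tetraspanins CD9, CD63 and CD81 differed by 0.88, -0.81 and 0.07, the sorting protein TSG101 by -0.65 and the secretion factor RAB27A by -0.58, and these 5 were not called. The cell cycle factor E2F3 (416 counts against 778, -0.71) and the DNA damage kinase ATM (2524 against 5521, -0.94) were not called either.

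Of 44 genes of antigen presentation and interferon response 34 were tested, 17 called higher in SW1990 and 4 higher in PANC-1, beside 14.1% and 14.8% over all genes, and among the 22 at 1 FPKM or more in both lines the calls were 8 and 1. CD74, the invariant chain of MHC class II, had 397 and 961 counts in SW1990 and 0 and 2 in PANC-1. NLRC5, the activator of MHC class I genes, had 705 and 806 against 16 and 55 (5.65; 4.94 to 6.46), and the antiviral gene MX1 had 255 and 286 against none. B2M, the constant chain of class I, was not called (-0.81; -0.91 to -0.71). CGAS, the sensor of cytosolic DNA, went the other way, with 955 and 893 counts in PANC-1 and 2 and 4 in SW1990 (-8.12; -10.41 to -6.57). Of 30 S100 and annexin genes 20 were tested, 6 called higher in SW1990 and 8 higher in PANC-1, against 29% called over all genes, and among the 15 present in both lines the calls were 3 and 6. They include the calcium-binding protein S100A14 (1203 counts against 0) and the annexin ANXA1 (837 against 6668). Of 9 metallothioneins 5 were tested, 1 called higher in SW1990 (MT1F, 3.0) and 2 higher in PANC-1. Among the 4 present in both lines the calls were 0 and 2. MT2A, a metallothionein, was higher in PANC-1, with 5562 counts against 346 (-3.82; -3.98 to -3.66).

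The genome position of the called genes, which the choice of genes did not use, was examined next. Protein-coding genes were taken in order along each chromosome, and runs of at least 5 neighbours called in the same direction were listed. There were 41 such runs, 20 higher in SW1990 and 21 higher in PANC-1, with 264 of 12287 genes. The longest held 29 genes, from SIRT2 to AKT2 on chromosome 19 (chr19:38878555-40285536, GRCh38), all higher in PANC-1. Their median difference was -3.84, a 14.4-fold difference, with a range from -2.28 to -10.88, and all 29 were called the same way in the irradiated pair at a median of -3.58. FPKM over the run summed to 1002 in SW1990 Ctrl and 1050 in SW1990 Rad against 12720 and 12670 in PANC-1. The run and its members were chosen after their values were seen, and DNA copy number was not measured.

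Whether the members of the run share a role was not tested. They include PAK4, a kinase of cell shape (9441 counts against 887), the transcription elongation factor SUPT5H (44875 against 3165), the ribosomal protein gene RPS16 (91672 against 5595), the nucleolar methyltransferase gene FBL (61608 against 4302) and the proteasome subunit gene PSMC4 (57490 against 2099). The Notch ligand DLL3 had 1183 counts in PANC-1 Ctrl and none in SW1990 Ctrl, and the F-box genes FBXO17 and FBXO27 had 6465 and 6265 against 0 and 4. The edges were unlike. Of the 10 neighbours before the run 7 were called higher in PANC-1 and 2 higher in SW1990, with a median of -2.13, whereas of the 10 behind AKT2 1 was called, with a median of -0.20. The gene next to AKT2, C19orf47, had 717 counts against 413 (-0.61; -0.79 to -0.43), and PLD3 behind it had 950 against 885 (0.09; -0.05 to 0.22).

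**Figure D3:**
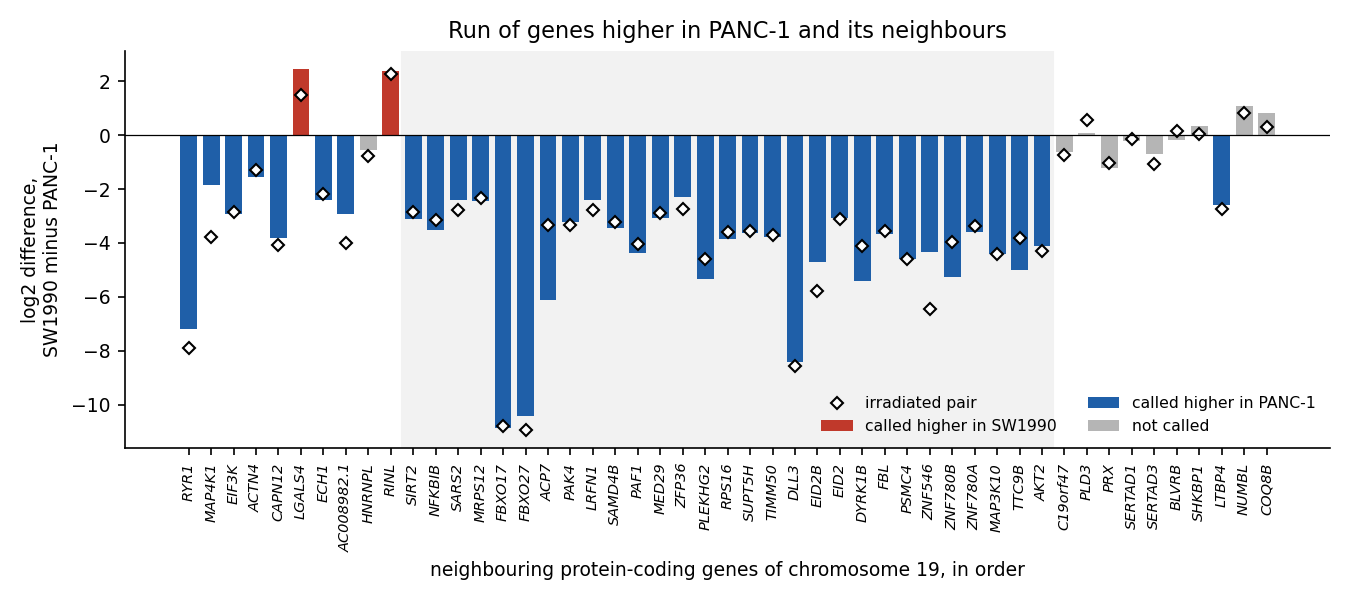
Log2 difference, SW1990 minus PANC-1, of the 29 neighbouring protein-coding genes from SIRT2 to AKT2 on chromosome 19 (shaded) and 10 genes on either side, as bars for the unirradiated and diamonds for the irradiated pair. All 29 lie at -2.28 or lower without radiation, and of the genes behind AKT2 only LTBP4 is called.

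Some of the other runs held families of related genes and some did not. A run of 12 genes higher in PANC-1 on the X chromosome began with MAGEA and CSAG genes (median -5.43) and ended in unrelated ones, and a run of 11 higher in SW1990 on chromosome 7 ran from HOXA3 to EVX1 (5.98). A run of 8 ended in the UGT1A genes of chromosome 2 (7.28), a run of 7 spanned HOXC13 to HOXC4 on chromosome 12 (-4.74) and a run of 6 began with the glutathione transferase gene GSTM4 on chromosome 1 (3.41). A run of 9 from FAM122B to ZNF449 on the X chromosome (-3.0), higher in PANC-1, held FAM122, RTL8 and zinc finger genes. Runs of mostly unrelated neighbours included 8 from PRPS1 to TMEM164 (-1.79) on the X chromosome and 7 from ADGRL2 to CTBS on chromosome 1 (-2.45), both higher in PANC-1, and 8 higher in SW1990 from INTS10 to HR on chromosome 8 (1.88). Chromosome 19 also carries the clusters of zinc finger genes, whose products are mostly transcriptional repressors. Of 251 of them 198 were tested, 69 called higher in PANC-1 and 10 higher in SW1990, with a median of -0.69. Of the 132 at 1 FPKM or more in both lines, 18 were called higher in PANC-1 and 4 higher in SW1990. The shares over all genes (14.8% and 14.1%) include genes present in 1 line only, so they are no match for this subset. A further 56 passed in PANC-1 only and 10 in SW1990 only, which fixes their direction. ZNF43 had 1282 and 1245 counts in PANC-1 and ZNF134 had 1211 and 884, with none in SW1990.

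Whole chromosomes differed as well. Chromosome 13 had the highest median, at 0.97 without and 1.005 with radiation, and 103 of its 300 genes were called higher in SW1990 (34.3%) and 18 higher in PANC-1 (6%). Chromosome 4 followed at 0.65 and 0.62. The X chromosome had the lowest median, at -0.59 and -0.53, and 143 of its 506 genes were called higher in PANC-1 (28.3%) and 54 higher in SW1990 (10.7%). On chromosome 19, 256 of 1126 genes (22.7%) were called higher in PANC-1, yet its median was -0.12. In windows of 5 Mb with at least 15 genes, 62 of 383 medians lay above 0.5 and 51 below -0.5, and 327 had the same sign in the irradiated pair. The split depends on the scaling, since total counts gave 103 above 0.5 and 32 below -0.5. The lowest lay at 70 to 75 Mb of chromosome 6, around CGAS, with a median of -3.65 over 25 genes (-2.53 in the irradiated pair). The window at 35 to 40 Mb of chromosome 19 had a median of -2.01 over 126 genes, of which 78 were called higher in PANC-1 and 4 higher in SW1990. The highest, at 25 to 30 Mb of chromosome 7, held the HOXA genes (1.84; 1.09 in the irradiated pair).

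**Figure D4:**
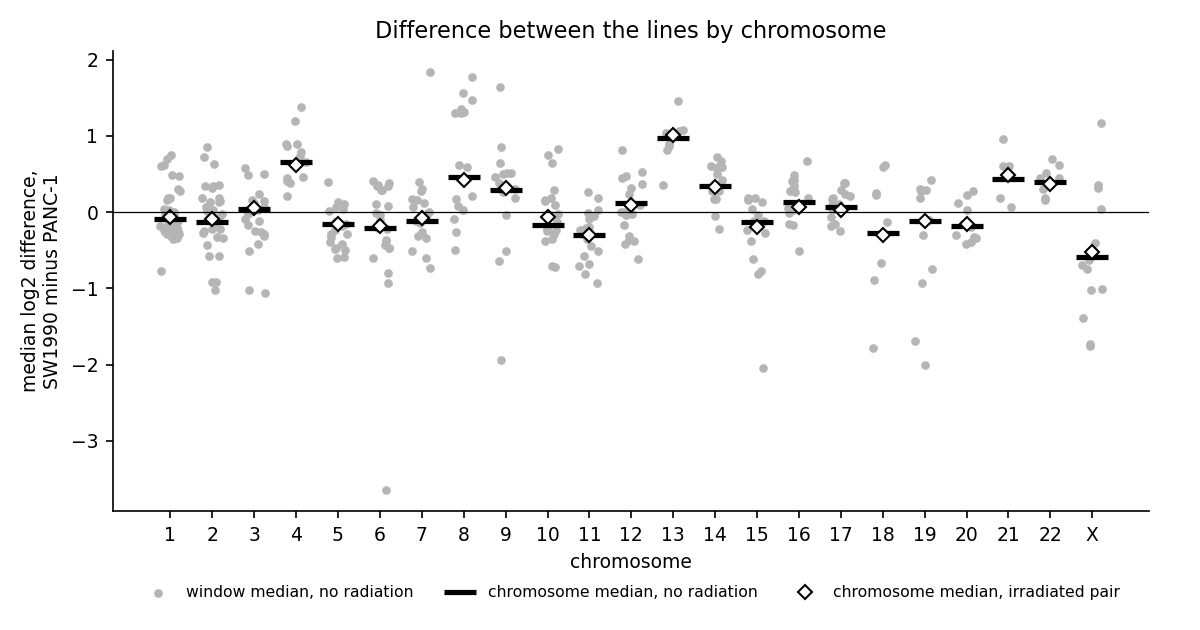
Median log2 difference, SW1990 minus PANC-1, of each window of 5 Mb (grey points) and of each chromosome (bars without radiation, diamonds in the irradiated pair). Chromosome 13 lies highest at 0.97 and the X chromosome lowest at -0.59, and bars and diamonds lie close together.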

How the data were processed

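RNA of unirradiated and irradiated SW1990 and PANC-1 cells was sequenced as paired ends, 1 library per line and treatment. Per the labels and the study's methods, the authors trimmed reads with Trimmomatic 0.36, mapped them to GRCh38 with HISAT2 2.0 and deposited raw counts per gene and FPKM values for the same genes; StringTie 1.3.3b and DESeq2 1.12.4 are also named in the submitters' processing notes. The counting tool and its use of strand are not given in the sources used here, and the labels name rRNA depletion while the methods name an mRNA kit. Overlapping genes therefore cannot be resolved. Of 59263 rows, 1089 named no gene. They held 0.453% to 0.635% of all counts in a library and were not used. Of the gene identifiers 57836 were found in GENCODE 29, and 27 gene names turned into dates were restored.

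Differences were computed in Python 3.11.15 with scipy 1.17.1 on counts scaled by TMM from edgeR 4.0.16 (R 4.3.3). The 4-library test was edgeR's quasi-likelihood test with Benjamini-Hochberg adjustment, and DESeq2 1.42.0 and limma 3.58.1 served as alternatives. Both procedures were tested on simulated data before use. In 200 genes altered 4-fold among 16626, the comparison of reads recovered 200 with 0 false calls. Those reads varied by counting error only, the altered genes were drawn from those with more reads, and the other genes had no difference. The result was therefore largely set by the simulation, and it cannot show how the calls fare with variation between cultures. In 200 altered by a log2 difference of 3 among 17621, the 4-library fit recovered 200 with 9 false calls.

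The genes compared and the gene lists were chosen with earlier results of these data known. The text names, of protein-coding genes called alike in both pairs and at an FPKM of at least 10, the 15 furthest apart in each direction. It also names, in each list, up to 6 called members with the largest difference and 3 uncalled members with the highest FPKM, the cell type markers, the genes the study names for these lines, and list genes in the extreme windows. Outside this rule, the following were chosen after their values were seen: PDX1, FOXA2, CRB3, ESRP1, ESRP2, CLDN1, CLDN7, ZEB1, SNAI1, SNAI2, TWIST1, TWIST2, CDH2, FN1, TAGLN, BMP1, MIRLET7BHG, MIR194-2HG, HOXB3, HOXB13, HOXC4, EVX1, GSTM4, ABCG2, EGFR, ERBB3, IGF2, PLAGL1, MEST, SMAD4, CDKN2A, and the genes of the runs of neighbours. XIST and the Y chromosome were left out of the genes named, and some other genes that the rule covers are not reported here. Intervals and count floors cover counting error only.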

Additional observations from a re-analysis of the deposited data

How the results depend on the processing

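With 1 library per line and treatment there were no replicates to pair, and the labels carry no replicate numbers. The 4-library fit tests the line with treatment as a further term, and without the treatment term 8392 genes passed in place of 7921. The unirradiated differences rest on single libraries, and medium and line cannot be told apart. Genes near the floor of 3 counts have wide intervals. Scaling by total counts moved the median of all genes to 0.22 and upper quartile scaling to 0.11, against 0.02, and gave 2811 and 2080 or 2554 and 2258 genes called higher in SW1990 and PANC-1. DESeq2 size factors gave 4816 calls. The FPKM ratio put 4239 genes beyond 2-fold in favour of SW1990 and 2974 in favour of PANC-1. Raising the filter to 5 FPKM left 3105 calls, 1414 of them higher in SW1990, and a limit of 4-fold left 2471, with 1199 and 1272 in the 2 directions, as fewer genes can pass. Leaving out genes whose exons overlap on either strand, chosen after seeing the data, left 3561 of 11803. The alternative scalings of the window medians were also chosen after seeing the data. Medians were above 0.5 and below -0.5 in 103 and 32 windows with total counts and in 113 and 31 with the FPKM ratio, against 62 and 51. In the 4-library fit, leaving out 1 library, with no treatment term, gave 5908 to 6393 genes, 2932 to 3302 higher in SW1990 and 2963 to 3331 higher in PANC-1, where the line left with 1 library is assumed to vary like the other.

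Of the named genes, ZNF264 (1.24) turned to -0.25 by FPKM and to -1.48 in the irradiated pair, where HBEGF stood at 0.06, ENO2 at -0.06 and ZNF585A at 0.08. The HOX median of 1.3 was -0.04 over the genes tested in the irradiated pair. That of fibroblast and stellate markers, 3.33, was -0.88 at 5 FPKM or more, and that of microRNA hosts, -1.14, was 2.28 without hosts overlapping another gene on the same strand. The cause was not tested.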
